A study of Mus musculus with 8 samples.

Results

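The chaperone genes were read from ribosome footprint libraries of mouse dorsal root ganglia (DRG), clusters of sensory neurons and glia along the spinal column. The set was chosen by gene symbol: the HSP70 genes with Hsph1 (14 genes), the HSP90 genes (3), the mitochondrial chaperonin Hspd1 and its lid Hspe1 (2), the subunits of the cytosolic chaperonin TRiC (9), the J-domain genes of the A, B and C classes (4, 13 and 26), the small heat shock proteins named Hspb (8) and the BAG genes (6). Pseudogenes named -ps were left out. The set held 85 of 48315 gene symbols. The 2 groups compared, each of 4 libraries, were both from saline-treated, wild-type animals (strain label SW): 4 libraries labelled female and 4 labelled male, each with a number from 1 to 4. The animals' age, and whether each library came from a separate animal, are not stated in the labels. The p-values therefore measure the spread between these libraries, which may be technical. Ribosome-bound RNA had been collected on size-exclusion columns, depleted of ribosomal RNA and size-selected to footprints of 28 to 34 nt. Levels are given in CPM, reads per 1000000 reads assigned to genes in a library.

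Chaperones bind unfolded or unstable proteins and release them folded, held or marked for destruction. HSP70 proteins do so in a cycle driven by ATP, in which J-domain proteins deliver the client and stimulate ATP hydrolysis, and BAG proteins and HSP110 proteins such as Hsph1 exchange the nucleotide. HSP90 takes over clients such as kinases and steroid receptors, TRiC encloses actin and tubulin in a double ring, and small heat shock proteins hold unfolded proteins without ATP. Sensory neurons have long axons rich in tubulin and neurofilaments, and mutations of the human genes HSPB1 and HSPB8 cause inherited disease of peripheral axons. Many of the cytosolic chaperone genes are turned on by heat shock factor 1 (HSF1), and those of the endoplasmic reticulum (ER) by the unfolded protein response.

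Promoters of 70 of the 85 genes were matched by symbol in a RefSeq table on GRCm38.p6, each spanning 250 bases before to 50 bases after a gene's start. The heat shock element, searched on both strands as GAANNTTCNNGAA (3 units of alternating direction), was present for 4 of these 70 genes (5.71%), namely Dnajb6, Hspd1, Hspe1 and Hsph1, and for 0.662% of the 27025 genes in the table. The ER stress response element, searched on both strands as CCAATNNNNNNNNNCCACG, was present for 3 of the 70 (4.29%), namely Dnajc3, Hspa5 and Hsp90b1, and for 0.137% of the 27025 genes. A match is a run of letters and not a shown binding site. Hsph1 and Hspe1 are printed for the cytosolic and mitochondrial arms, and Hspa5 and Hsp90b1 for the ER arm, because the summed levels of these arms had different lowest libraries. The sequences run 5′ to 3′ on the gene's strand and the matched letters are in capitals.
Hsph1: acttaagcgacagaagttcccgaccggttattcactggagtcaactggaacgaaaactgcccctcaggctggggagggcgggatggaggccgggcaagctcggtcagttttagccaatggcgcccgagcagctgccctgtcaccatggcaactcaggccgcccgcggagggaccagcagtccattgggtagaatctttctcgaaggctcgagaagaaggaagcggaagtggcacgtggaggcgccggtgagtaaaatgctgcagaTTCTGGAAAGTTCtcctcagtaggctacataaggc
Hspe1: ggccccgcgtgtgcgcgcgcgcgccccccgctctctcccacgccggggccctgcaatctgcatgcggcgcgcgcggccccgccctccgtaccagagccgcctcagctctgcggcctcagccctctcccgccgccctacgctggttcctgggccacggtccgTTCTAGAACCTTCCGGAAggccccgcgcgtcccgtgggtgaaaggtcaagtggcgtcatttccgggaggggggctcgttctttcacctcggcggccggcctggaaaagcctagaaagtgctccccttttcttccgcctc
Hspa5: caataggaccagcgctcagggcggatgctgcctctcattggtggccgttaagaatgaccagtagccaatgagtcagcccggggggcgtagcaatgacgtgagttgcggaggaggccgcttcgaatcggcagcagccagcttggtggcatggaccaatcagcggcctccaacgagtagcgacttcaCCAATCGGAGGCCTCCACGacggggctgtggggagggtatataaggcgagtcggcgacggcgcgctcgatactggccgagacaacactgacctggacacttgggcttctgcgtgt
Hsp90b1: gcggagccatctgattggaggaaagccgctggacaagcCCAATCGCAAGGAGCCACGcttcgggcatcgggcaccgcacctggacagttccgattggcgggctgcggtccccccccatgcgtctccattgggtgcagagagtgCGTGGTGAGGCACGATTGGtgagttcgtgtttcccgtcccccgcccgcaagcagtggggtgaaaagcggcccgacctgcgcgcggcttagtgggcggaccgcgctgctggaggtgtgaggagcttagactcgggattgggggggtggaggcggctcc
On GRCm38.p6 these stretches lie at chr5:149636266-149636565 on the minus strand (Hsph1), chr1:55087898-55088197 on the plus strand (Hspe1), chr2:34771840-34772139 on the plus strand (Hspa5) and chr10:86705395-86705694 on the minus strand (Hsp90b1). Counted from the gene's start base as 0, the match begins at 15 in Hsph1, at -89 and -84 in Hspe1, where 2 matches overlap, at -65 in Hspa5, and at -212 and -107 in Hsp90b1. Hspe1 and Hspd1 (chromosome 1, 55077835 to 55088243, minus strand) start head to head and overlap at their starts, and their promoter windows share sequence. The 2 overlapping matches lie in the shared stretch, so the same site was counted for both genes.

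Features of the libraries bear on every comparison. Depth lay between 3697686 assigned reads in male 1 and 12714554 in male 3, and coding genes held between 78.3% of the reads in male 1 and 93.8% in female 1. In female 1, female 3 and male 1, sex-linked transcripts contradicted the label: Y-linked genes summed to 121, 138 and 2.70 CPM there, and Xist stood at 0.175, 0 and 10.6 CPM. Female and male therefore mean the label throughout. The libraries labelled female 1 and female 3 were also much closer to each other than any other pair. Of 12587 coding genes, 1.06% differed between them at p below 0.001 in a chi-square test on reads, against 9.41% to 31.8% in the other 27 pairs. The test covers counting error only and does not show that the libraries come from separate tissue. They were entered as 2 libraries because the labels list them so, and results with the pair averaged are given beside the comparison. The tissue label was checked against markers of DRG neurons: Tubb3, Prph and Scn10a averaged 2704 ± 671, 1297 ± 352 and 1108 ± 101 CPM (SD, n = 8). The 13 neuron markers together took between 13722 CPM in male 1 and 23306 CPM in female 1. These are bulk samples, in which fewer cells of a type and less RNA per cell cannot be told apart.

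Of the 85 genes, 77 had a mean of at least 1 CPM over the 8 libraries, 66 at least 10 CPM and 25 at least 100 CPM. The 85 genes together took 15544, 11292, 15564 and 13538 CPM in female 1 to 4, against 9683, 10868, 13129.7 and 11039 CPM in male 1 to 4. Female 2, the lowest female library, lay below male 3, so the groups overlapped. HSP90 genes held 40.9% of the set's reads, HSP70 genes 21.7%, TRiC 14.7%, class C J-domain genes 8.50%, BAG genes 5.28%, class B J-domain genes 3.00%, small heat shock proteins 2.59%, class A J-domain genes 2.36% and the mitochondrial chaperonin pair 0.959%. These are shares of reads, in which long genes weigh more. Genes are therefore ranked against each other below only per kilobase of coding length. The ratios of 2 genes, which serve to compare the labels, are in reads.

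**Figure D1:**
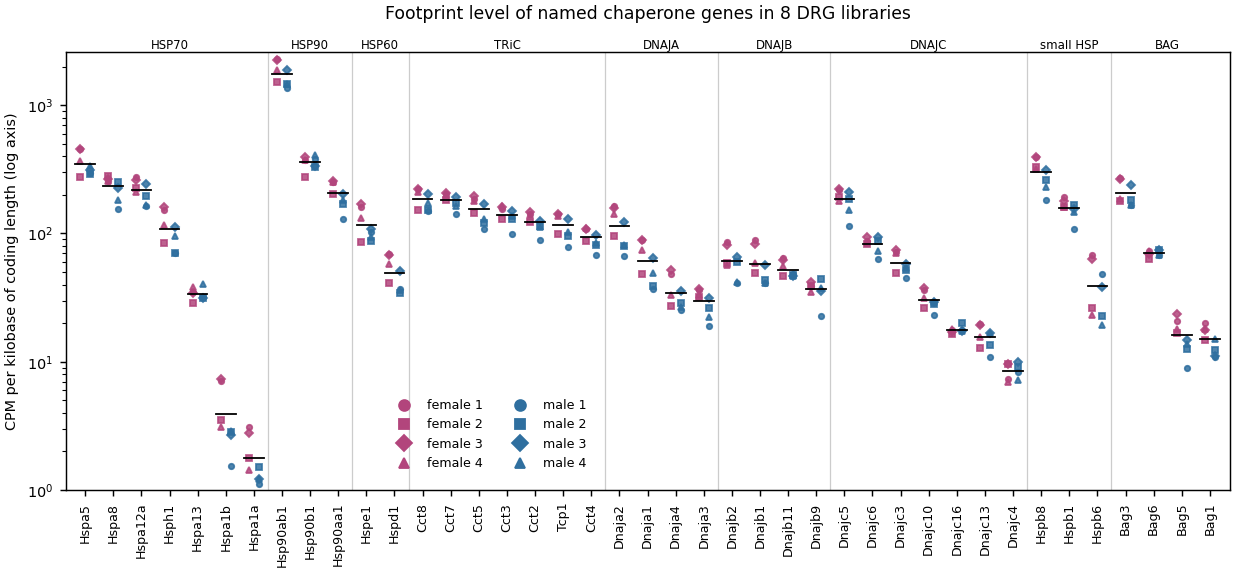
Level per gene in CPM per kilobase of coding length (log axis) for the named chaperone genes that have an annotated coding length and a mean of at least 1 CPM, by family; points are libraries, labelled female left of labelled male, and the black bar is the mean of 8. Hsp90ab1 stands highest at 1764 ± 363, and of the genes plotted Hspa1a and Hspa1b lowest, below 10 in every library.

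The cytosolic HSP90 gene Hsp90ab1 (chromosome 17, 45567775 to 45573271) had the highest level of the set, 1764 ± 363 CPM per kilobase (SD, n = 8), which ranked 22 among 14056 coding genes. Its stress-induced paralog Hsp90aa1 stood at 205 ± 44.9 CPM per kilobase, and Hsp90b1, the HSP90 of the ER lumen, at 359 ± 43.6. In reads, Hsp90ab1 was at 4957, 3296, 4883 and 4077 CPM in female 1 to 4, against 2964, 3191, 4090.4 and 3191 CPM in male 1 to 4. Hsp90aa1 was at 552, 444, 562 and 551 CPM in the female libraries and at 285, 375, 445 and 402 CPM in the male ones. For both cytosolic genes, female 1 and female 3 were the highest libraries and male 1 the lowest, and the groups overlapped. Hsp90b1 was at 902, 659.6, 941 and 897 CPM in the female libraries, against 917, 793, 806 and 988 CPM in the male libraries. Its highest library was male 4 and its lowest female 2, an order unlike that of the cytosolic pair.

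Among HSP70 genes, the ER chaperone Hspa5 (BiP; chromosome 2, 34771970 to 34777547) led with 349 ± 71.7 CPM per kilobase, followed by the constitutive cytosolic Hspa8 (chromosome 9, 40800984 to 40810087) at 234 ± 43.4 and Hspa12a, a distant member of the family, at 217 ± 41.5. The SDs of Hspa8 and Hspa12a overlap, so their order is not resolved. The lead of Hspa5 over Hspa8 holds for reads as listed, without those on the copy of Hspa8 given below. Hspa5 was at 893, 544, 899 and 715 CPM in female 1 to 4, against 585, 568, 616 and 662 CPM in male 1 to 4. The 3 highest libraries were female, and the lowest was female 2. Hspa8 was at 494, 542, 511 and 494 CPM in the female libraries, against 299, 488, 441 and 354 CPM in the male ones, with every female library above every male one. Hspa12a was at 557, 459, 529 and 429.6 CPM in the female libraries, against 329, 393, 488 and 338 CPM in the male libraries. The HSP110 gene Hsph1, a nucleotide exchange factor of HSP70, was at 394, 216, 410.4 and 301 CPM in the female libraries and at 181, 182, 291 and 246 CPM in the male ones. Again female 1 and female 3 stood highest. The heat-inducible pair Hspa1a and Hspa1b (chromosome 17) was low in every library: its sum was 19.5, 10.2, 19.6 and 8.72 CPM in female 1 to 4, against 5.14, 8.37, 7.55 and 7.96 CPM in male 1 to 4. Hspa13, an ER-associated member, was at 49.2, 40.4, 48.6 and 54.5 CPM in female libraries and 45.2, 44.1, 44.4 and 57.4 CPM in male ones, with no order by label.

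Dnaja2 and Dnaja1, the cytosolic partners of Hspa8, stood at 114 ± 38.0 and 61.3 ± 21.5 CPM per kilobase, and Dnaja3, which acts with HSP70 in mitochondria, at 29.7 ± 6.43. Dnaja2 was at 203, 118, 196 and 175 CPM in female 1 to 4, against 82.5, 98.2, 151 and 101 CPM in male 1 to 4. Only male 3 reached the female range. Dnaja1 was at 107, 57.2, 107 and 88.7 CPM in the female libraries, against 44.1, 46.0, 76.1 and 58.1 CPM in the male ones. Dnaja3 was at 52.2, 45.9, 53.1 and 47.5 CPM in the female libraries, against 27.6, 37.7, 45.5 and 32.3 CPM in the male ones, with male 3 just under the lowest female value. Dnaja4 stood at 34.6 ± 10.2 CPM per kilobase, above Dnaja3 with overlapping SDs. In reads it was at 57.9, 32.2, 61.6 and 39.2 CPM in the female libraries, against 30.3, 34.0, 42.8 and 32.0 CPM in the male ones, and the groups overlapped.

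In class B, Dnajb2, a form enriched in neurons, stood at 61.5 ± 16.2 CPM per kilobase, the heat-inducible Dnajb1 at 57.7 ± 18.6, and Dnajb11 and Dnajb9, the partners of BiP in the ER, at 52.3 ± 7.45 and 36.9 ± 6.45. Dnajb1 was at 90.6, 49.9, 84.1 and 60.5 CPM in female 1 to 4, against 41.6, 43.9, 57.9 and 42.2 CPM in male 1 to 4. Dnajb11 averaged 61.4 ± 8.61 CPM in the female libraries and 50.8 ± 0.779 CPM in the male ones (SD, n = 4 each), so its male libraries lay close together. In class C the highest level was that of Dnajc5, the cysteine string protein of synaptic vesicles, at 184 ± 36.5 CPM per kilobase. Of the other class C genes given by value, Dnajc6 (auxilin, which strips clathrin from vesicles) stood at 83.2 ± 10.3. The ER genes Dnajc3 and Dnajc10 stood at 59.3 ± 11.2 and 30.1 ± 4.84, and Dnajc13, an endosomal protein, at 15.7 ± 3.12. Class C genes not given by value lay between them. Dnajc5 was at 129, 115, 132 and 107 CPM in the female libraries, against 67.6, 111, 125 and 89.9 CPM in the male libraries. Male 1 was the lowest library. Dnajc3, which holds back the kinase PERK under ER stress, was at 109, 74.6, 112 and 106 CPM in the female libraries, against 68.2, 78.7, 87.2 and 82.0 CPM in the male ones. Female 2 fell within the male range for Dnajc3 and also for Dnajc10, an ER disulfide reductase, at 62.7 CPM against a male range of 55.4 to 69.4 CPM.

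Hspb8 and its partner Bag3, which together pass clients to autophagy, were at 303 ± 75.4 and 206 ± 44.2 CPM per kilobase, and their SDs overlap that of Hspa8. Hspb1, the small heat shock protein Hsp25 of the mouse, stood at 159 ± 24.5. Hspb8 (chromosome 5, 116408491 to 116422864) was at 234, 192, 232 and 188 CPM in female 1 to 4, against 108, 154, 184 and 135 CPM in male 1 to 4, and the groups did not overlap. Hspb1 was at 119.7, 101, 113 and 101 CPM in the female libraries, against 68.4, 105, 96.8 and 92.2 CPM in the male ones, where male 2 lay above the lowest female values. Bag3 was at 465, 309.9, 464 and 322 CPM in the female libraries, against 287, 315, 410.3 and 287 CPM in the male ones, and its groups overlapped. Bag6, which handles misfolded and tail-anchored proteins, had the smallest spread of the 77 genes: 253, 218, 240.5 and 251 CPM in the female libraries, against 236, 256, 255 and 237 CPM in the male ones. Hspb6, a small heat shock protein known from muscle, was at 32.8, 12.7, 30.8 and 11.3 CPM in female 1 to 4, against 23.5, 11.0, 18.5 and 9.44 CPM in male 1 to 4, so that male 1 was not the lowest library but the third highest. The sum of 8 skeletal muscle markers was 9761, 3242, 9649 and 4600.4 CPM in the female libraries, against 8160.0, 4394, 6081 and 3667 CPM in the male ones. Muscle RNA thus moved with Hspb6 across libraries, and its part in that result was not tested.

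The mitochondrial chaperonin Hspd1 stood at 49.3 ± 14.3 CPM per kilobase and its lid Hspe1 at 117 ± 32.7. In reads, Hspd1 was at 118, 70.9, 117 and 99.4 CPM in female 1 to 4, against 63.8, 59.3, 87.1 and 61.9 CPM in male 1 to 4. Hspe1 was at 49.2, 26.2, 51.6 and 40.1 CPM in the female libraries and at 31.6, 26.5, 33.2 and 28.6 CPM in the male ones. Both genes were highest in female 1 and female 3.

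The 8 genes missing the minimum of 1 CPM were Cct6b (0.845 ± 0.395 CPM, SD, n = 8), the muscle gene Hspb3 (0.805), Dnajc22 (0.394), Dnajb13 (0.136), Hspa1l (0.0642), Dnajb7 (0.0380), Dnajb8 (0.0173) and Hspb9, which had no read in any library. Cct6b, Dnajb13, Hspa1l, Dnajb8 and Hspb9 are known from testis. A level of 3 reads, the limit that a count of 0 allows, corresponds to 0.236 CPM in the deepest library and to 0.811 CPM in the shallowest, and covers counting error only.

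**Figure D2:**
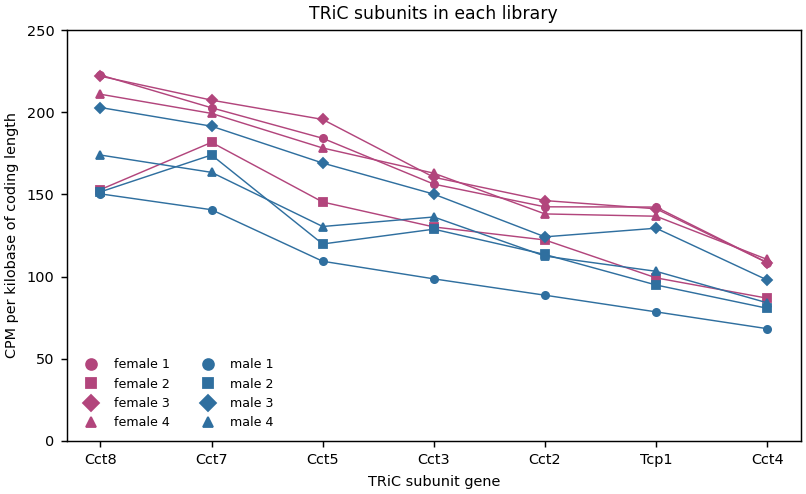
CPM per kilobase of coding length for 7 TRiC subunits in each library, subunits ordered by mean level; lines join the subunits of a library, purple for labelled female and blue for labelled male. Cct4 is the lowest subunit in all 8 libraries, and Cct7 or Cct8 the highest.

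TRiC is built of 8 different subunits in equal number, which makes its genes a set whose levels can be set against each other. Per kilobase of coding length, Cct8 stood at 186 ± 32.2 CPM, Cct7 at 183 ± 22.6, Cct5 at 154 ± 32.2, Cct3 at 140.5 ± 21.6, Cct2 at 123 ± 19.0, Tcp1 at 116 ± 24.6 and Cct4 at 93.1 ± 15.5 (SD, n = 8). Cct6a has no coding length in the annotation used and is given in reads only, at 219 ± 39.1 CPM. Cct7 or Cct8 was highest and Cct4 lowest in each of the 8 libraries. The highest subunit exceeded the lowest by 1.91-fold in female 4 and by more in the other 7 libraries, and the coefficient of variation over the 7 subunits lay between 22.4% and 29.4%. Neighbours in the order had overlapping SDs. With the mean coding length over a gene's transcripts, the mean coefficient of variation was 35.3% in place of 25.1%, so the evenness of the subunits depends on the transcript chosen. The TRiC genes together, Cct6b included, took 2143, 1699, 2195 and 2112 CPM in female 1 to 4, against 1355, 1587, 1977 and 1693 CPM in male 1 to 4. The lowest library was male 1, and male 3 and the female libraries overlapped.

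**Figure D3:**
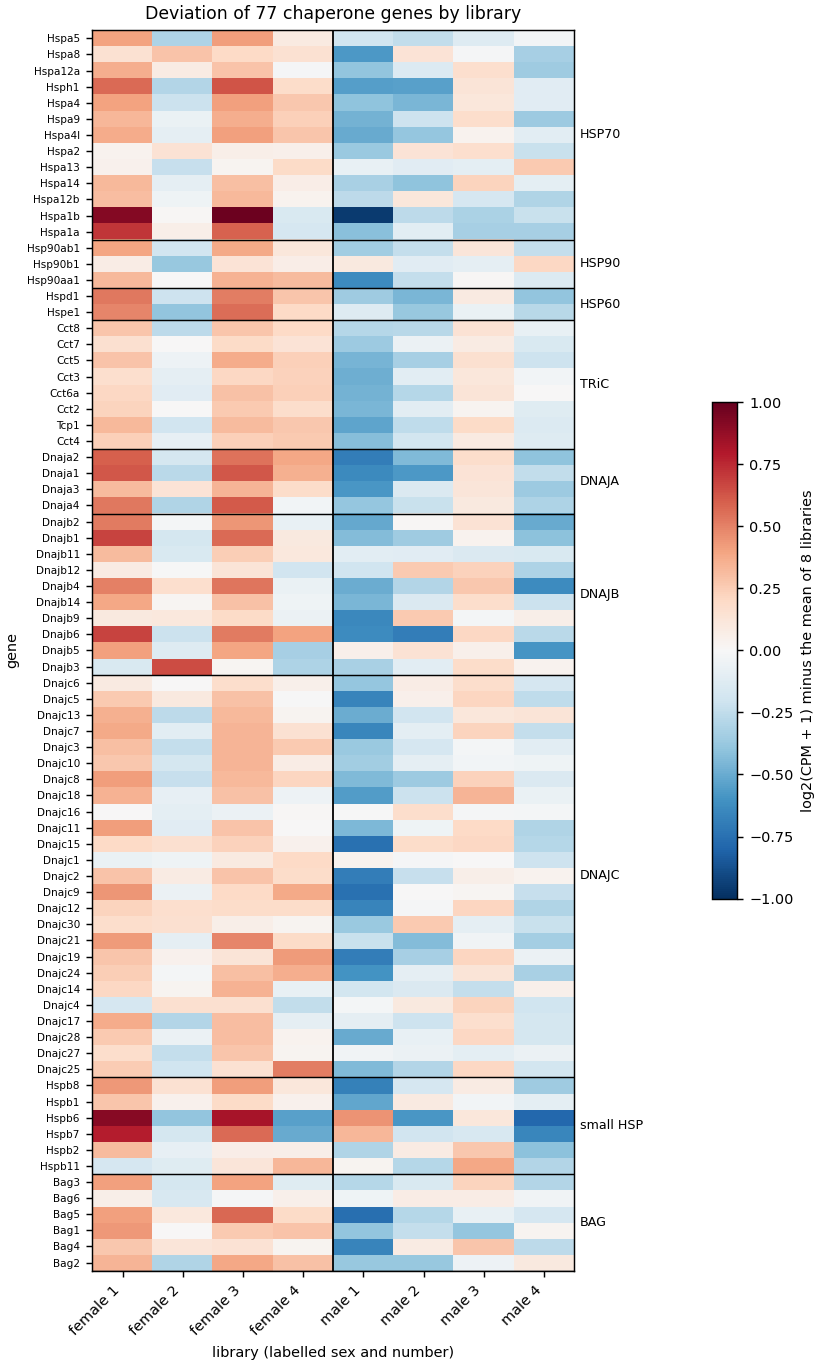
Deviation of each of the 77 genes from its mean over the 8 libraries, in log2(CPM + 1), with a row for each gene and a column for each library, labelled female left of labelled male; red is above the gene's mean, blue below it. Of the 77 genes, 58 are highest in female 1 or female 3 and 51 are lowest in male 1, counts that were not made over all genes. In male 1, 6 are above their own mean, Hspb6 and Hspb7 among them.

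Variation between libraries had a common direction. Of the 77 genes, 58 had their highest library in female 1 or female 3, and 51 their lowest in male 1. The same counts were not made over all genes. The medians of all genes, given below, were also highest in female 1 and female 3 and lowest in male 1. The median deviation of the 77 genes from their own means was 0.32, -0.09, 0.30 and 0.10 on the log2 scale in female 1 to 4, against -0.43, -0.16, 0.11 and -0.21 in male 1 to 4. Over all 15720 genes with at least 1 CPM it was 0.16, -0.03, 0.15 and 0.03 in female 1 to 4, against -0.26, 0.05, 0.06 and -0.14 in male 1 to 4. The chaperone genes thus lay farther from 0 than the median gene in every library, and in male 2 on the other side of it. The share of reads on coding genes was also lowest in male 1 and highest in female 1. It was not in step throughout, at 87.3% in male 2, against 86.3% in female 2 and 86.8% in female 4. With coding genes alone rescaled to 1000000, the set's sum was still highest in female 1 and female 3 (16577 and 16712) and lowest in male 1 (12369). The part of the coding share in the pattern was not tested beyond this rescaling. The coefficient of variation over the 8 libraries had a median of 20.8% for the 66 chaperone genes with at least 10 CPM and of 17.3% for all 9598 such genes. Over all 77 genes it ran from 5.38% in Bag6 and 5.93% in Dnajc16 to 55.2% in Hspa1b, which averaged 7.48 CPM.

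The labels pose the comparison of female with male DRG. In limma's moderated test on log2(CPM + 1), 0 of the 77 chaperone genes passed an adjusted p of 0.05 (Benjamini-Hochberg over all genes), and 0 of all 15720 genes did (percent called: 0). The smallest adjusted p was 0.372 for the chaperone genes and for all genes alike. No gene is therefore called higher or lower by label. At an unadjusted p below 0.05, 27 of the 77 were higher in the female libraries, where 11.9% of all genes were, and 0 were lower, where 1.41% of all genes were. The median log2 fold change, female minus male, was 0.33 for the 77 genes and 0.15 for all genes. It was above 0 for 73 of the 77 and for 71.7% of all genes, and 66 of the 77 lay above the median of all genes.

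Counted by family, the log2 fold change was above 0 for 13 of 13 HSP70 genes (median 0.39, 8 at an unadjusted p below 0.05), 2 of 3 HSP90 genes (0.35, 1), 2 of 2 mitochondrial chaperonin genes (0.49, 1), 8 of 8 TRiC genes (0.32, 3), 4 of 4 class A J-domain genes (0.57, 3), 10 of 10 of class B (0.29, 3), 23 of 25 of class C (0.30, 5), 6 of 6 small heat shock genes (0.31, 1) and 5 of 6 BAG genes (0.32, 2). These medians are set against 0.15 for all genes, and no difference between families was tested.

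These counts rest on few libraries. Leaving out female 1, female 3 or male 1 lowered the count of 27 to 15, 13 and 14, and leaving out female 2 or male 3 brought it to 42 and 45. The count over all genes, 1877 with all libraries, moved as well, to 644, 646 and 717, and to 2724 and 3197. Averaging female 1 and female 3 into 1 library gave 13 and a median log2 fold change of 0.28, beside 643 and 0.12 for all genes. With sample weights, 56 of the 77 chaperone genes were higher at an unadjusted p below 0.05, and so were 4710 of all genes. With the 3 libraries of contradicted label all left out, the chaperone count was 0. The median log2 fold change of the 77 was then 0.11, and 60 of them were above 0. Over the 15769 genes tested in that fit, 117 were higher, the median was 0.012, and 52.4% were above 0. Scaling by median ratios moved the median of all genes to 0.0042, with 992 genes higher and 1026 lower at an unadjusted p below 0.05 in place of 1877 and 222. On that scale the median of the 77 chaperone genes was 0.17, with 19 higher and 2 lower (Dnajc16 and Bag6). On coding genes alone, rescaled, the median was 0.23 for 76 chaperone genes, with 25 higher and 0 lower at an unadjusted p below 0.05. For all genes it was 0.064 there, with 1356 higher and 621 lower. With the library number as a block, limma called 27 of the 15720 genes (0.172%), and 0 chaperone genes, whose smallest adjusted p was then 0.117.

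**Figure D4:**
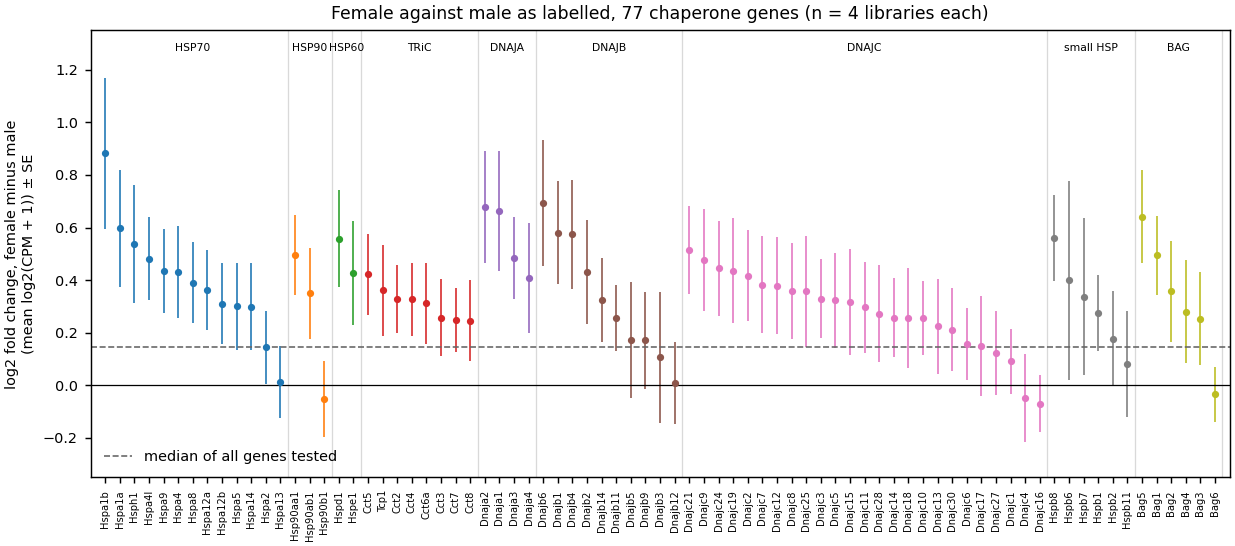
Log2 fold change, female minus male as labelled, of the 77 chaperone genes by family, on the log2(CPM + 1) scale, with bars of 1 standard error on each side; the dashed line marks the median of all 15720 genes, 0.15. None passed the adjusted threshold, and Hsp90b1, Bag6, Dnajc16 and Dnajc4 lie below 0.

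The 5 genes with the smallest p were Bag5, Hspb8, Bag1, Hsp90aa1 and Dnaja2, with log2 fold changes of 0.64 ± 0.18, 0.56 ± 0.16, 0.49 ± 0.15, 0.50 ± 0.15 and 0.68 ± 0.21 (SE), each at a limma adjusted p of 0.372. Bag5, a nucleotide exchange factor of HSP70 (chromosome 12, 111709488 to 111713257), was at 27.9, 22.4, 31.5 and 23.9 CPM in female 1 to 4, against 11.9, 16.9, 19.7 and 18.4 CPM in male 1 to 4. Its groups did not overlap. Such separation, every female library above every male one, was found for 6 of the 77 genes (Bag5, Dnaja3, Dnajc2, Hspa1b, Hspa8 and Hspb8) and for 3.43% of all genes, and the reverse for 0 of the 77 and for 1.13% of all genes. Bag1, the founding BAG gene, was at 21.5, 15.7, 18.9 and 19.2 CPM in female libraries, against 11.6, 13.1, 11.7 and 15.9 CPM in male ones, where male 4 reached the lowest female value. The 4 genes with a negative fold change were Dnajc16 (-0.071 ± 0.11), Hsp90b1 (-0.051 ± 0.15), Dnajc4 (-0.048 ± 0.17) and Bag6 (-0.034 ± 0.10), each smaller than its SE.

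By role, all 8 HSF1-induced genes listed for this comparison (Hspa1a, Hspa1b, Dnajb1, Dnaja4, Hsph1, Hspb1, Hsp90aa1 and Bag3) had a fold change above 0, with a median of 0.52, and 5 had an unadjusted p below 0.05, where 71.7% and 11.9% of all genes did. Among these 5 were Hspa1a and Hspa1b, near-identical in coding sequence and low, averaging 3.41 and 7.48 CPM, so they are not independent. Hsp90aa1 was another, and the values of all 3 are uncertain because of shared sequence, as given below. The 8 genes summed to 1699, 1163, 1714 and 1384 CPM in female 1 to 4, against 898, 1063, 1351 and 1109 CPM in male 1 to 4. Female 2 lay within the male range. Of the 7 ER genes (Hspa5, Hsp90b1, Hspa13, Dnajb9, Dnajb11, Dnajc3 and Dnajc10), 6 were above 0, with a median of 0.25 and 0 at an unadjusted p below 0.05. Their sum was 2134, 1457, 2185 and 1930.2 CPM in the female libraries, against 1738, 1631, 1698 and 1934 CPM in the male ones, and the lowest library was female 2. The 8 mitochondrial genes were all above 0, with a median of 0.43, and so were the 3 vesicle and endosome genes Dnajc5, Dnajc6 and Dnajc13, with a median of 0.22. None of these genes passed the adjusted threshold, where 0% of all genes did. The difference between the lists was not tested. The heat shock element genes Hsph1, Hspe1, Hspd1 and Dnajb6 had log2 fold changes of 0.54 ± 0.22, 0.43 ± 0.20, 0.56 ± 0.18 and 0.69 ± 0.24 (SE; limma adjusted p = 0.372, 0.377, 0.372 and 0.372). Of the 8 HSF1-induced genes, only Hsph1 held a match. Hsp90aa1 had no promoter to search, and the promoters of the others held no match to this exact pattern. Other forms of the element were not searched. Hspd1 and Hspe1, which share matches, were listed with the mitochondrial genes and not with the HSF1-induced ones. Whether the match marks HSF1-induced genes cannot be read from these lists. The ER element genes Hspa5, Dnajc3 and Hsp90b1 had 0.30 ± 0.17, 0.33 ± 0.15 and -0.051 ± 0.15 (limma adjusted p = 0.413, 0.375 and 0.884).

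**Figure D5:**
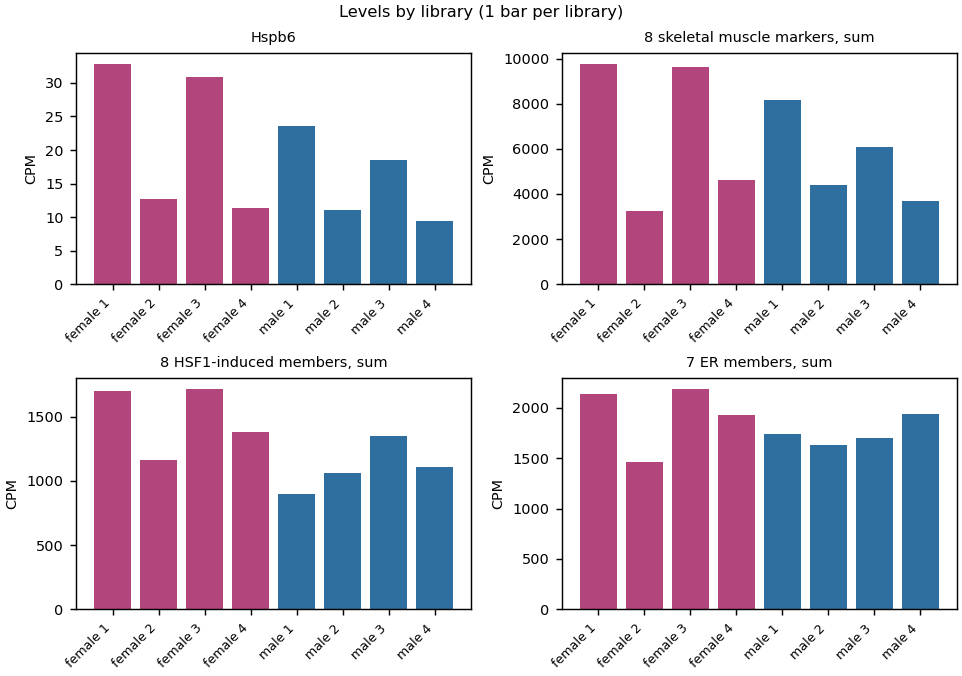
Level in each library, in CPM on axes that start at 0, of Hspb6, of 8 skeletal muscle markers summed, of the 8 HSF1-induced genes summed and of the 7 ER genes summed; each bar is 1 library, labelled female left of labelled male. Female 1, female 3 and male 1 are the highest for Hspb6 and for the muscle markers, whereas male 1 is the lowest for the HSF1-induced genes, at 898 CPM.

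Genes that work with the chaperones but lie outside the set were counted the same way. Of 29 partners of HSP90 and HSP70, 27 had a fold change above 0, with a median of 0.35, and 15 had an unadjusted p below 0.05 (71.7% and 11.9% of all genes, with a median of 0.15). Stip1, which bridges the 2 chaperones, was at 446, 277, 441 and 402 CPM in female 1 to 4, against 242, 268, 361 and 294 CPM in male 1 to 4, and its groups overlapped. The 11 prefoldin and TRiC partner genes had a median of 0.26 (10 above 0), 19 ER folding enzymes 0.21 (18 above 0), 9 mitochondrial proteases 0.25 (9 above 0) and the heat shock factor genes Hsf1, Hsf2 and Hsf4 with the factor-binding gene Hsbp1 0.33 (4 above 0). Cryab, a small heat shock protein outside the Hspb names, was at 523, 562, 503 and 407 CPM in the female libraries, against 467, 611, 549.6 and 335 CPM in the male ones, with a log2 fold change of 0.048. None of the genes on these lists passed the adjusted threshold. Neuron markers had a median fold change of 0.21 (12 of 13 above 0), fibroblast markers -0.20 (0 of 6), and satellite glia markers -0.14 (2 of 6). Skeletal muscle markers had 0.23 (8 of 8), myelinating Schwann cell markers 0.065 (4 of 6) and macrophage markers -0.048 (2 of 6). Endothelial markers had -0.14 (1 of 6), neutrophil markers -0.26 (0 of 6) and spinal cord glia markers -0.54 (0 of 5). The spinal cord glia markers summed to 483 CPM in male 2 and to 168 to 232 CPM in the other libraries. Gja1 alone took 256 CPM in male 2 and 130 to 184 CPM in the other libraries, where it made up most of the sum. Summed, neuron markers took 18898 to 23306 CPM in the female libraries, against 13722 to 21277 CPM in the male ones. Fibroblast markers took 11387 to 12662 CPM in the female libraries, against 12442 to 17099 CPM in the male ones, and satellite glia markers 10117 to 11905 CPM, against 11285 to 13968 CPM. The part of these cell types in the chaperone values was not tested.

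A ratio of 2 genes within a library does not depend on how the library is scaled. The labels were therefore compared for 4 ratios with an exact permutation test (two-sided, smallest possible p 0.0286 from 70 arrangements). These are ratios of reads, without coding length, and do not rank the 2 genes. Hsp90aa1 relative to Hsp90ab1, the induced over the constitutive form, was 0.124 ± 0.0126 in the female libraries and 0.112 ± 0.0128 in the male ones (SD, n = 4 each; exact p = 0.2, adjusted over the 4 ratios 0.305). Hsp90b1 relative to Hsp90ab1, the ER form over the cytosolic one, was 0.199 ± 0.016 in the female libraries and 0.266 ± 0.0544 in the male ones (exact p = 0.0857, adjusted 0.305). It was 0.182, 0.200, 0.193 and 0.220 in female 1 to 4, against 0.310, 0.248, 0.197 and 0.310 in male 1 to 4. Male 3 fell within the female range, while the other male libraries lay above it. Hspa5 relative to Hspa8, the ER over the cytosolic HSP70, had a log2 difference of -0.091 (exact p = 0.743, n = 4 each, adjusted 0.743), and its direction turned without female 2 or male 1. Hspd1 relative to Hspe1, chaperonin over lid, was 2.46 ± 0.179 in the female libraries and 2.26 ± 0.259 in the male ones (exact p = 0.229, adjusted 0.305). Hspe1 has the shorter coding sequence (306 bases, against 1719 in Hspd1), and per kilobase it stood above Hspd1. Over same-numbered pairs, Hsp90aa1 relative to Hsp90ab1 was higher in the female library of 4 of 4 pairs, and Hsp90b1 relative to Hsp90ab1 was lower in 4 of 4, each at an exact sign-flip p of 0.125 (two-sided, n = 4 pairs, adjusted over the 4 ratios 0.25), the smallest that 4 pairs allow. None of the 4 ratios passed the threshold in either test.

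Several chaperone genes have near-identical copies, and how reads on shared sequence were assigned is not given in the sources used here. Of 84 chaperone genes with an annotated coding sequence, 51 shared no window of 30 bases with the transcript of another gene. At the other end, 9 shared over 50% of their windows: Dnajb6 (98.2%), Dnaja1 (95.1%), Hspa8 (95.0%), Hsp90aa1 (91.9%), Hspa1a (91.3%), Hspb1 (90.5%), Hspa1b (88.6%), Hspe1 (84.8%) and Hspd1 (80.0%). Values of these 9 genes are uncertain. For Hspa8 the copy is visible in the table: Gm15459, a processed pseudogene that holds 92.1% of the Hspa8 windows, was listed at 334, 308, 336 and 237 CPM in female 1 to 4, against 153, 285, 277 and 163 CPM in male 1 to 4. Hspa8 and Gm15459 together averaged 814 ± 56.6 CPM in the female libraries and 615 ± 155 CPM in the male ones (SD, n = 4 each), and in the sum, unlike in Hspa8 alone, female 4 fell below male 2. Over the 8 libraries the sum averaged 715 ± 151 CPM, against 685 ± 141 CPM for Hspa5 (SD). The coding lengths are close, 1938 bases in Hspa8 and 1965 in Hspa5. The order of Hspa5 and Hspa8, and their ratio, therefore depend on where these reads belong. Hspa1a and Hspa1b, whose coding sequences are 99.4% identical, summed to 14.5 ± 5.88 CPM in the female libraries and 7.26 ± 1.45 CPM in the male ones.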

How the data were processed

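Ribosome footprints of DRG were sequenced in 4 libraries labelled female and 4 labelled male; RNA abundance libraries that the labels describe were not analysed here. The authors deposited 1 table per labelled sex, in which the CPM values (the tables are named as TPM) had been scaled by the authors to 1000000 in each library, with no length correction: 94.4% to 96.4% of values above 0 were whole multiples of 1 step, within 0.01 of a step. Each library was scaled on its own, so comparing the 2 tables rests on that scaling. Tools named in the submitters' processing notes are Cufflinks 2.2.1, Bowtie2 2.2.9, TopHat2 2.1.1 and FastQC 0.11.5, with GRCm38.p4 and mm10; for the annotation and the counting, the sources used here give nothing. Depth, and the reads in the chi-square test (at least 50 in a pair), are values divided by the step.

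Rows sharing a symbol were summed (48431 rows, 48315 symbols; Hspa14 had more than 1). With limma 3.58.1 in R 4.3.3 (eBayes with trend, two-sided), log2(CPM + 1) was fitted for the 15720 genes averaging 1 CPM or more, adjusting by Benjamini-Hochberg at 0.05. Fold changes, female minus male, understate low genes. The test was planned for normalized values, and was tested on simulated data. Levels per kilobase divide a gene's reads, wherever they lie, by the coding length of its longest coding transcript in GENCODE M21 (GRCm38; 99.2% of identifiers found), which also gave positions, counted from 1. The rest was computed with scipy 1.17.1, pandas 2.3.3 and numpy 2.4.6 and drawn with matplotlib 3.10.9, in Python 3.11.15.

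The members and gene lists were chosen with earlier results of these data known. Values are given for the 3 genes of each family with the most reads (by CPM, not per kilobase), all TRiC and HSP90 genes, the HSF1-induced and ER genes, and the 5 smallest p in each direction (only 4 genes were negative). Dnajb6, Dnajc2, Hspb7, Gm15459, Stip1 and Cryab were named after their values were seen.

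The main tests are unpaired. By a rule of every correlation above 0.1, same numbers were taken to mark pairs for an alternative fit with the number as a block: the correlation of same-numbered libraries, each as its deviation from its label's mean, was 0.288, 0.492, 0.531 and 0.592. This comes from the data, not from the labels, and female 1 correlated best with male 3. Alternatives were other pseudocounts, filters, scalings, sample weights and left-out libraries. The paired test of ratios was added after the data were seen.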

Additional observations from a re-analysis of the deposited data

Results flagged for a closer look

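Within the 4 libraries of a label, 11 of 86 groups tested over 43 named chaperone genes held 1 library whose gap to its nearest neighbour, as a share of the group's range, exceeded Dixon's 95% critical value. Chance flags about 1 group in 20, and the genes share libraries, so the flags are not independent.

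Female 2 stood below the other libraries labelled female in 6 of the 11: Hsp90b1 at 659.6 CPM (the others at 897 to 941 CPM), Hsp90aa1 at 444 CPM (551 to 562), Dnajc3 at 74.6 CPM (106 to 112), Cct8 at 251 CPM (347 to 366), Tcp1 at 165 CPM (228 to 237) and Cct4 at 140.4 CPM (175 to 179). Among the libraries labelled male, male 3 stood above the others for Dnajb1 at 57.9 CPM (41.6 to 43.9) and Hspd1 at 87.1 CPM (59.3 to 63.8). Male 2 stood above them for Dnajc16 at 46.5 CPM (40.4 to 40.8), and male 4 for Hspa13 at 57.4 CPM (44.1 to 45.2). Male 1, the shallowest library, stood below them for Hspa1b at 2.97 CPM (5.19 and above). No explanation of these values was tested.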

How the results depend on the processing

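No chaperone gene was called in any alternative fit, and their median log2 fold change stayed above 0, between 0.25 and 0.42 when 1 library was left out. Over all genes, the fit with the number as a replicate block called 27, and the fit without the 3 libraries of contradicted label called 5, in place of 0. The block changed no call of a chaperone gene, and the paired test changed no call of a ratio. Without those 3 libraries the median of the chaperone genes was 0.11 (0.33 with all 8), the log2 difference of their summed level 0.088 (0.32 with all 8), and the fold changes of 13 of the 77 genes turned below 0. Those among the genes given by value were Bag3 (-0.078), Dnaja4 (-0.018), Dnajb9 (-0.077), Dnajc13 (-0.13), Hspa13 (-0.039) and Hspb6 (-0.053). The log2 difference of Hspa5 relative to Hspa8 was -0.091, and between -0.23 and 0.091 when 1 library was left out, turning without female 2 (0.091) or male 1 (0.017). The mean coefficient of variation over TRiC subunits was 35.3% with mean coding lengths.

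Median-ratio scaling turned 7 of the 77 genes below 0, TMM 4, coding genes alone 4 of 76, and sample weights 2 below and 2 above. Among the genes given by value, Hspa13 was at -0.14 with median-ratio scaling, -0.12 with TMM, -0.084 on coding genes alone and -0.025 with sample weights. Sample weights turned Dnajc4 (0.042) and Hsp90b1 (0.015), and median-ratio scaling Dnajc6 (-0.0025). With 1 library left out, Hspa13 ran from -0.047 to 0.103 (below 0 without female 4, male 1, male 2 or male 3), Hsp90b1 from -0.105 to 0.066 (above 0 without female 2 or male 4), Bag6 from -0.059 to 0.013 (above 0 without female 2), Dnajb9 from -0.015 to 0.288 (below 0 without male 1) and Dnajc4 from -0.124 to 0.026 (above 0 without female 4 or male 3). The cause was not tested.

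Each result was compared with its main value under each alternative. Of these comparisons, 771 for single genes kept their direction and their side of the threshold. For the main results 133 comparisons were labelled unchanged, by looser rules for some. Ratios had to keep direction and side of the threshold, and counts to stay within a set factor. Medians, the summed level and the TRiC variation had to move by less than an SD between libraries. A count model was planned and not run, as the share of values that came out whole, 94.4% to 96.4%, was too low for them to be taken as recovered reads. Depth limits the low genes: 3 reads are worth 0.811 CPM in male 1.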
